A study of Saccharomyces cerevisiae with 12 samples.

Results

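The *ATG* genes of *S. cerevisiae* encode the autophagy machinery, and 34 of the 5449 genes named on the arrays (5667 features in all) carry a symbol made of ATG and a number. All 34 were kept, with 1 probe set each, and no filter on low values was applied to them. Their RNA was hybridized to 12 arrays of the type Affymetrix Yeast Genome 2.0, from 3 cultures of each strain and treatment. The groups were *com2*Δ cells with 0.5 mM SO2, *com2*Δ cells without SO2 (control), wild-type cells with 0.5 mM SO2 and wild-type cells without SO2 (control), each harvested after 60 min at pH 3.5. Both strains are BY4741 (MATa, his3Δ1, leu2Δ0, met15Δ0, ura3Δ0), a haploid laboratory strain, and the mutant also lacks *COM2*, which encodes a zinc finger transcription factor. Values are the deposited intensities, which rise with the amount of RNA that binds a probe set and differences between groups were taken only within a probe set.

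In autophagy, a double membrane, the autophagosome, closes around cytoplasm and delivers it to the vacuole, the digestive compartment of yeast. The Atg1 kinase complex starts its assembly, Atg9 vesicles bring the first membrane, a PI3-kinase complex marks the site with PI3P, Atg2 and PI3P-binding proteins help the membrane to grow, and 2 ubiquitin-like conjugation systems attach Atg8 to it. Receptor proteins choose cargo such as mitochondria, peroxisomes or pieces of the endoplasmic reticulum, and vacuolar enzymes break down what arrives. Autophagy in yeast is best known as a response to starvation for nitrogen, which acts through the TORC1 kinase.

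*COM2* intensities were 19.1 to 20.3 in *com2*Δ cells with SO2 and 9.35 to 12 in *com2*Δ control cells, against 2368 to 2752 in wild-type cells with SO2 and 2858 to 3680 in wild-type control cells, in keeping with the labels. The genes *LEU2*, *MET17* (*MET15*) and *URA3*, deleted in both strains, reached at most 152.5 on any array. This maximum is that of *LEU2* on array 2 of *com2*Δ cells with SO2, while *MET17* stayed at 17.8 or less and *URA3* at 39.4 or less, and since probe sets differ in background it is only a rough floor. Values of 30 of the 34 *ATG* genes exceeded it on all 12 arrays. *ATG10* was under it on 3 arrays, *ATG15* on 1, *ATG16* on 9 and *ATG29* on 2. The 3 markers of α cells, the opposite mating type, summed to 964 to 1306 in *com2*Δ cells with SO2, 924 to 1053 in *com2*Δ control cells, 273 to 373 in wild-type cells with SO2 and 805 to 1079 in wild-type control cells. Of these, *STE3*, which makes up most of the sum, and *MF(ALPHA)2* fell with SO2 in wild-type cells (log2 fold changes, -1.90 and -1.45), and *MF(ALPHA)1*, which encodes α-factor, measured 0.64 there and stayed at 63.9 or less on every array. The wild-type values of *MF(ALPHA)2* with SO2 were 76.1 or less, under the rough floor of 152.5. With lower intensities raised to that floor, its change was -0.34 and was not called. The 5 markers of **a** cells, the mating type of both strains, summed to 47128 to 48394 in *com2*Δ cells with SO2, 51701 to 65138 in *com2*Δ control cells, 87185 to 92556 in wild-type cells with SO2 and 49096 to 60871 in wild-type control cells. In wild-type cells *BAR1* rose with SO2 (1.71) and the log2 fold changes of the other 4 lay between 0.39 and 0.72. With SO2, *BAR1* (-1.46), *STE2* (-1.001) and *STE6* (-1.002) were called lower in the mutant than in the wild type. The calls of *STE2* and *STE6* sat at the limit. They were lost without array 3 of wild-type cells with SO2 (-0.98 for both) or array 1 of *com2*Δ cells with SO2 (-0.96 and -0.95). Median centring and quantile normalization ended them too. Of the α-cell markers, *STE3* (2.21) and *MF(ALPHA)2* (1.11) were called higher in the mutant than in the wild type with SO2. The call of *MF(ALPHA)2* was lost without array 2 of *com2*Δ cells with SO2 (0.9995) and with lower intensities raised to the rough floor (0.07). The part of these markers in the *ATG* values was not tested. Replicate arrays correlated with r of 0.973 to 0.995 across features.

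Several arrays stood apart in the *ATG* genes. Array 2 of *com2*Δ cells with SO2 had the lowest of its group's values for 29 of the 34 (median log2 difference from its replicates, -0.28), whereas 45.5% of all features were lowest there. Array 3 of wild-type control cells was lowest for 26 (-0.25, 47.6% of all features), array 1 of wild-type cells with SO2 for 25 (-0.16, 33.5%) and array 1 of *com2*Δ control cells for 22 (-0.15, 34.1%). The median difference of these 4 arrays over all features lay between -0.03 and 0.02. Where a call below rests on one of these arrays, the value without it is given.

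In *com2*Δ cells, only *ATG41* rose and only *ATG1* fell with SO2, 2 of 34 genes (5.88%) where 5.88% of all features were called (3.14% upward and 2.74% downward). A gene was called where the log2 fold change from limma, with SO2 over control, was 2-fold or more in either direction, the p-value was under 0.05 and the false discovery rate was under 10%. In bulk RNA, fewer cells with a transcript and less RNA per cell cannot be told apart. Without array 2 of *com2*Δ cells with SO2, *ATG1* stayed just under 2-fold there (log2 fold change, -0.98), which left 1 gene called. With an adjusted p under 0.05 and no limit on the fold, 1 gene was higher and 8 were lower, 26.5% of the *ATG* genes beside 28.9% of all features (14.0% higher and 14.9% lower). For 15 genes the arrays did not overlap, 4 higher and 11 lower with SO2, where 47.1% of all features did not overlap (24.1% higher and 23.1% lower). The median log2 fold change was -0.07 (0.01 over all features).

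In wild-type cells, 10 *ATG* genes changed with SO2, in both directions. *ATG1*, *ATG26*, *ATG32*, *ATG33* and *ATG41* rose, whereas *ATG10*, *ATG23*, *ATG27*, *ATG34* and *ATG39* fell. The 10 called are 29.4% of the 34, and 18.8% of all features passed. Calls upward took 10.5% of all features and calls downward 8.36%. With an adjusted p under 0.05 and no limit on the fold, 11 *ATG* genes were higher and 8 lower with SO2, which is 55.9% of them beside 59.5% of all features (30.0% higher and 29.6% lower). The arrays with SO2 did not overlap with the control arrays for 20 *ATG* genes, 11 higher and 9 lower, where 62.8% of all features did not overlap (31.7% higher and 31.1% lower). The median log2 fold change of the 34 genes was 0.12 (0.00 over all features), and the standard errors of single genes, the same in both strains, lay between 0.10 and 0.29. *ATG41* was the single gene that rose in both strains, and *ATG1* was called in opposite directions. By the sign of the fitted value alone, 11 genes were lower with SO2 in *com2*Δ cells and higher in wild-type cells, and 5 the other way round. These counts include values near the line of no change, such as *ATG9* in wild-type cells (0.03). They were not taken over all features, so they give no trait of the *ATG* genes.

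**Figure D1:**
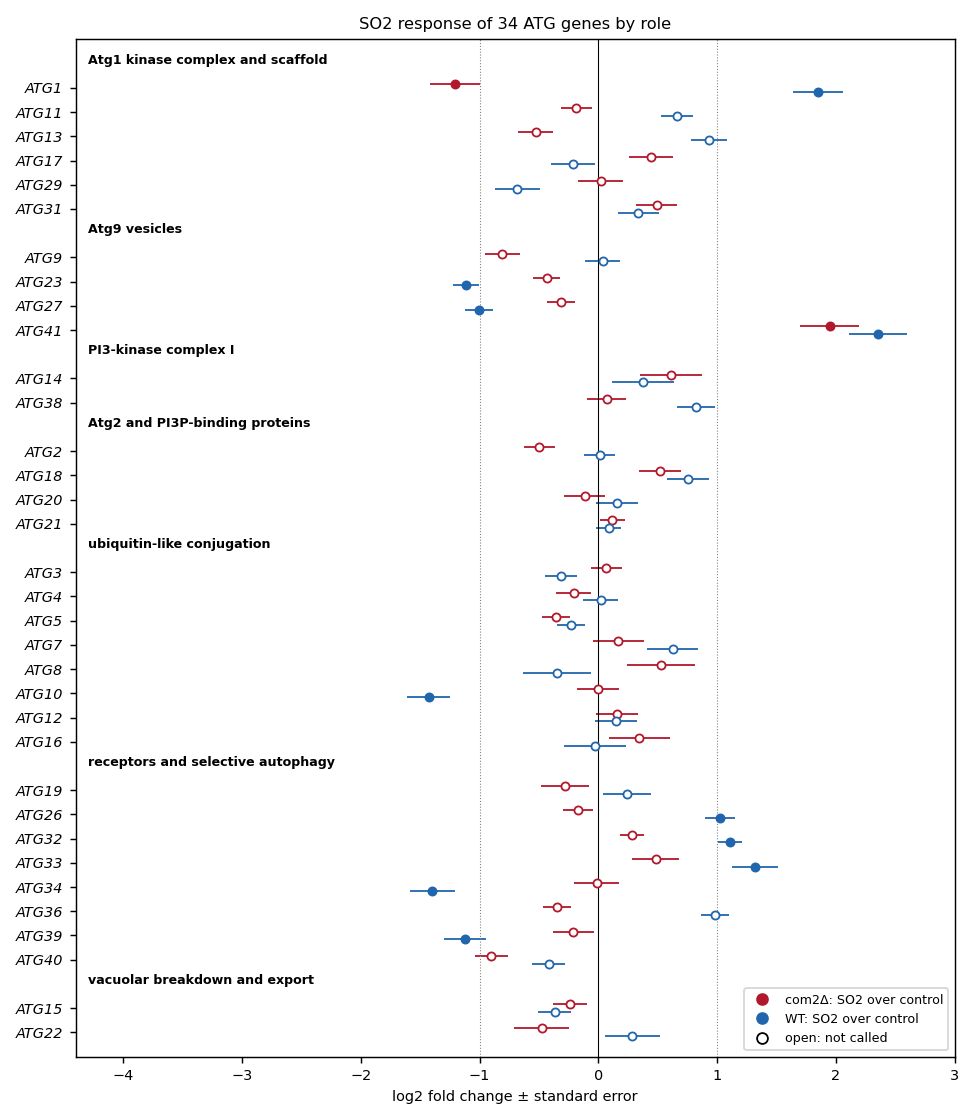
Log2 fold change (x axis, SO2 over control) of the 34 *ATG* genes, grouped by role, in *com2*Δ cells (red) and wild-type cells (blue); points are estimates from limma, bars 1 standard error, and filled points passed the call, with dotted lines at 2-fold. *ATG41* lies to the right in both strains, whereas *ATG1* is at -1.21 in *com2*Δ cells and at 1.85 in wild-type cells.

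With SO2, the strains differed in 9 *ATG* genes. *ATG10* was higher in the mutant, whereas *ATG1*, *ATG9*, *ATG11*, *ATG13*, *ATG26*, *ATG32*, *ATG33* and *ATG36* were lower there. The 9 called are 26.5% of the 34 genes beside 17.7% of all features; upward calls took 7.62% and downward calls 10.0% of all features. Without a limit on the fold, 5 genes were higher and 15 lower at an adjusted p under 0.05, where 29.9% of all features were higher and 32.4% lower (62.3% in all). For 21 genes the arrays of the strains did not overlap, 5 higher and 16 lower in the mutant, where 66.8% of all features did not overlap (32.0% higher and 34.8% lower). The median log2 difference was -0.28 for the 34 genes and -0.01 over all features.

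Without SO2, no *ATG* gene was called between *com2*Δ and wild-type cells by limma, and 0.706% of all features were. At an unadjusted p under 0.05, 6 *ATG* genes differed, where 13.6% of all features did. *ATG32* was the single gene with an adjusted p under 0.05 (log2 difference of *com2*Δ minus wild-type cells, -0.48, adjusted p = 0.048), beside 1.16% of all features (0.618% higher and 0.547% lower). The 3 *com2*Δ control arrays were all below the 3 wild-type control arrays for 7 genes, *ATG3*, *ATG23*, *ATG26*, *ATG29*, *ATG32*, *ATG34* and *ATG39*, and for no gene were they all above. Over all features, 10.1% were lower and 7.39% higher in this sense (17.5% in all). The fitted value was negative for 25 of the 34 genes, a count that was not taken over all features. Its median was -0.20 (-0.02 over all features).

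The difference of the SO2 responses (*com2*Δ minus wild type), fitted in the same model, passed the call for 6 *ATG* genes, 17.6% of them where 17.5% of all features did (8.17% positive and 9.30% negative). It was positive for *ATG10* and *ATG34* and negative for *ATG1*, *ATG13*, *ATG26* and *ATG36*. At an adjusted p under 0.05 with no limit on the fold, 5 were positive and 10 negative, where 44.9% of all features passed (21.8% positive and 23.1% negative). Of the 9 genes that differed between the strains with SO2, 5 were among these 6. For *ATG9*, *ATG11*, *ATG32* and *ATG33* the difference of responses stayed under 2-fold, at -0.84 ± 0.21, -0.85 ± 0.19, -0.82 ± 0.14 and -0.84 ± 0.28 (log2 ± SE). The standard errors of this difference lay between 0.14 and 0.40.

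**Figure D2:**
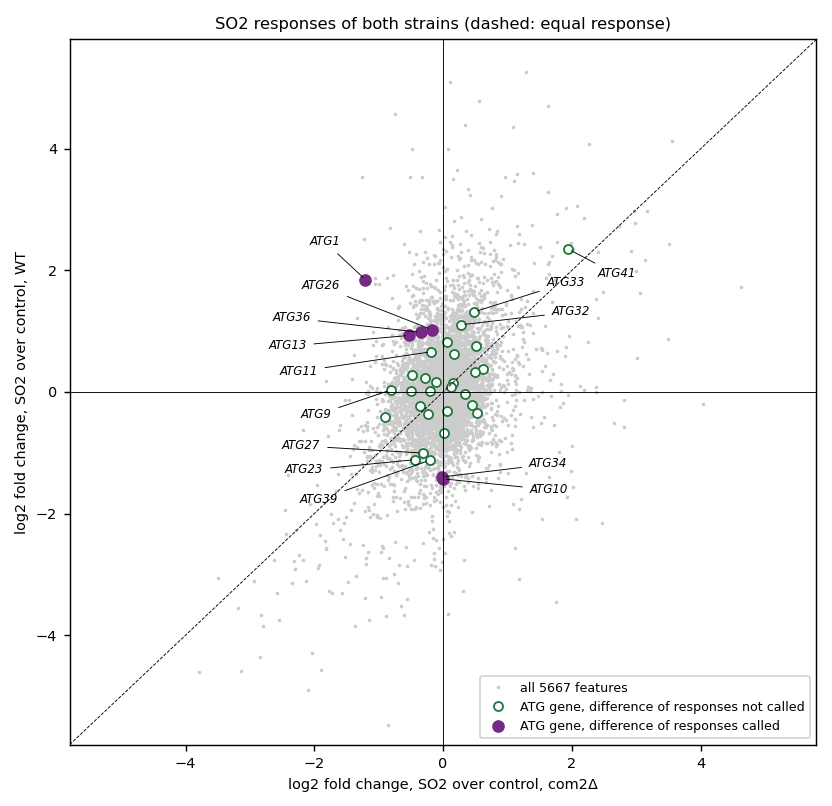
Log2 fold change with SO2 in *com2*Δ cells (x axis) against that in wild-type cells (y axis) for all 5667 features (grey) and the 34 *ATG* genes; filled purple points are the 6 genes whose responses differed by the call, and the dashed line marks equal responses. *ATG41* lies near the line, *ATG1*, *ATG13*, *ATG26* and *ATG36* above it to the left, and *ATG10* and *ATG34* below it.

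**Figure D3:**
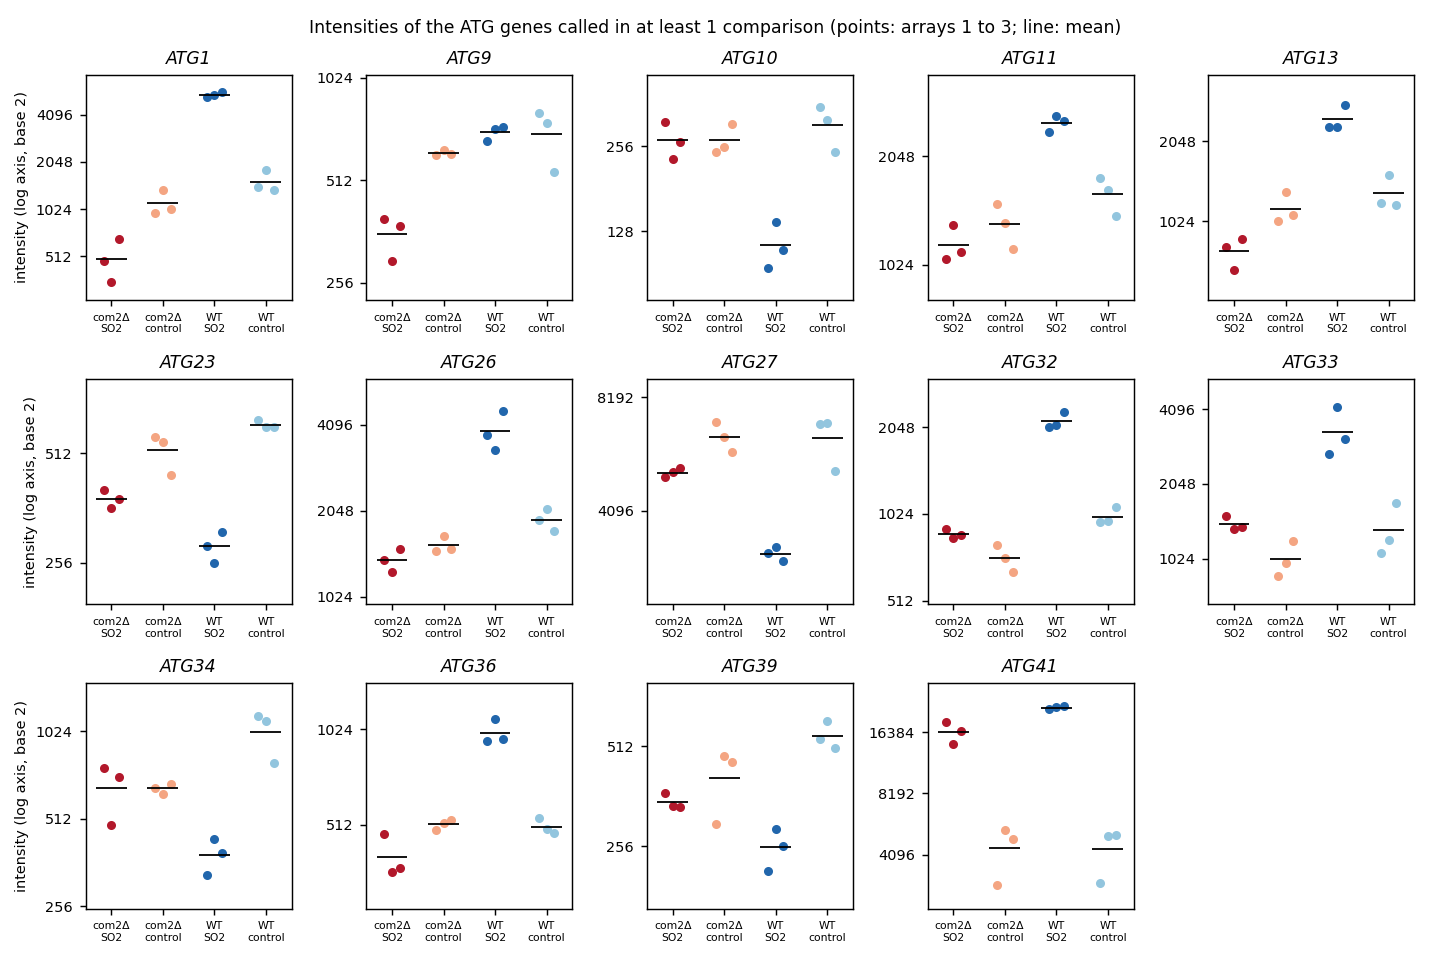
Intensity on each array (y axis, log scale of base 2, with its own range in each panel) of the 14 *ATG* genes called in at least 1 comparison, for *com2*Δ cells with SO2 and control and wild-type cells with SO2 and control; points are arrays 1 to 3 and lines the means. In *ATG1*, *ATG11*, *ATG13*, *ATG26*, *ATG32*, *ATG33* and *ATG36* the wild-type arrays with SO2 lie above all other arrays, and in *ATG10*, *ATG23*, *ATG27*, *ATG34* and *ATG39* below them.

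Among the 6 genes of the Atg1 kinase complex and its scaffold, *ATG1* encodes the kinase itself. *ATG1* intensities were 478, 351 and 659 on the *com2*Δ arrays with SO2, 968, 1365 and 1028 on the *com2*Δ control arrays, 5275, 5469 and 5681 on the wild-type arrays with SO2 and 1418, 1819 and 1360.0 on the wild-type control arrays. The arrays with SO2 were the lowest of all in the mutant and the highest of all in the wild type, and they overlapped with no control array. *ATG1* fell 2.31-fold in *com2*Δ cells (log2 fold change, -1.21 ± 0.21 SE; adjusted p = 0.0017, limma) and rose 3.60-fold in wild-type cells (1.85 ± 0.21; adjusted p = 2.2e-05). With SO2 it was 11.4-fold lower in the mutant than in the wild type (-3.51 ± 0.21; adjusted p = 3.6e-07), and the difference of responses was -3.06 ± 0.30 (adjusted p = 3.1e-05). Without array 2 of *com2*Δ cells with SO2, the fold change in *com2*Δ cells was -0.98 and no longer 2-fold.

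*ATG13* encodes the subunit through which TORC1 controls the kinase. *ATG13* intensities were 821, 675 and 882 on the *com2*Δ arrays with SO2, 1026, 1323 and 1078 on the *com2*Δ control arrays, 2325, 2314 and 2804 on the wild-type arrays with SO2 and 1204, 1529 and 1184 on the wild-type control arrays. As with *ATG1*, the arrays with SO2 were lowest in the mutant and highest in the wild type, while the control arrays of the strains overlapped. *ATG13* was 3.14-fold lower in the mutant than in the wild type with SO2 (log2 difference, -1.65 ± 0.15; adjusted p = 5.0e-06, limma). The log2 fold changes with SO2, -0.53 ± 0.15 in *com2*Δ cells and 0.93 ± 0.15 in wild-type cells, were each under 2-fold, and their difference of -1.46 ± 0.21 was called (adjusted p = 0.00035). Without array 2 of wild-type control cells, the wild-type change was 1.05 and passed the call.

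*ATG11* encodes the scaffold that links cargo receptors to the kinase. *ATG11* intensities were 1063, 1324 and 1109 on the *com2*Δ arrays with SO2, 1511, 1335 and 1136 on the *com2*Δ control arrays, 2393, 2659 and 2572 on the wild-type arrays with SO2 and 1783, 1653 and 1402 on the wild-type control arrays. Here the wild-type arrays with SO2 lay above all the others, and the *com2*Δ arrays with and without SO2 overlapped. With SO2, *ATG11* was 2.19-fold lower in the mutant than in the wild type (-1.13 ± 0.13; adjusted p = 3.1e-05, limma). The genes *ATG17*, *ATG29* and *ATG31* encode the scaffold used in starvation and were called in no comparison. Their log2 fold changes with SO2 were 0.45, 0.02 and 0.49 in *com2*Δ cells, and -0.22, -0.68 and 0.34 in wild-type cells. For *ATG29* the adjusted p was 0.0092 in wild-type cells. With the farthest array of each group left out, the differences of responses of *ATG17* (0.66) and *ATG29* (0.70) became 1.22 and 1.12 and passed the call. That of *ATG17* also passed with array weights (1.10).

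Of the 4 genes of the Atg9 vesicles, *ATG41* had the largest log2 fold change with SO2 among the *ATG* genes in each strain; it encodes a protein that takes part in the delivery of Atg9. *ATG41* intensities were 18338, 14299.7 and 16634 on the *com2*Δ arrays with SO2, 2890.2, 5385 and 4900.3 on the *com2*Δ control arrays, 21272, 21655 and 21995 on the wild-type arrays with SO2 and 2974, 5041 and 5097 on the wild-type control arrays. Arrays with SO2 were far above the control arrays in both strains, and control array 1 was the lowest in each. *ATG41* rose 3.85-fold in *com2*Δ cells (1.95 ± 0.24; adjusted p = 0.00028, limma) and 5.10-fold in wild-type cells (2.35 ± 0.24; adjusted p = 1.2e-05). The 3 *com2*Δ arrays with SO2 were below the 3 wild-type arrays with SO2, by a log2 difference of -0.41 ± 0.24 that did not pass (adjusted p = 0.17), and the difference of responses was -0.40 ± 0.35 (adjusted p = 0.36).

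*ATG9* encodes the membrane-spanning scramblase of these vesicles. *ATG9* intensities were 393, 295 and 376 on the *com2*Δ arrays with SO2, 608, 629.7 and 611 on the *com2*Δ control arrays, 666, 722 and 735 on the wild-type arrays with SO2 and 805, 753 and 543 on the wild-type control arrays. The *com2*Δ arrays with SO2 were the lowest, and the wild-type arrays with SO2 lay within the range of their controls. *ATG9* was 2.01-fold lower in the mutant than in the wild type with SO2 (-1.01 ± 0.15; adjusted p = 0.00016, limma). This call sat at the limit: the log2 difference was -0.88 without array 2 of *com2*Δ cells with SO2, -0.99 without array 2 and -0.98 without array 3 of wild-type cells with SO2, and none of these passed. Its log2 fold change with SO2 was -0.81 ± 0.15 in *com2*Δ cells and 0.03 ± 0.15 in wild-type cells.

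*ATG23* and *ATG27* encode proteins that travel with Atg9 and help to form its vesicles. *ATG23* intensities were 405, 361 and 384 on the *com2*Δ arrays with SO2, 566, 551 and 446 on the *com2*Δ control arrays, 284, 256 and 312 on the wild-type arrays with SO2 and 631, 603 and 604 on the wild-type control arrays. For *ATG27* the intensities were 5027, 5182 and 5307 on the *com2*Δ arrays with SO2, 7045, 6409.7 and 5871 on the *com2*Δ control arrays, 3167, 3291 and 3013 on the wild-type arrays with SO2 and 6945, 6988 and 5227 on the wild-type control arrays. Both genes were lower on all arrays with SO2 than on the control arrays of the same strain, and lowest in the wild type. *ATG23* fell 2.16-fold (-1.11 ± 0.11; adjusted p = 8.7e-06, limma) and *ATG27* fell 2.01-fold (-1.005 ± 0.12; adjusted p = 3.1e-05) in wild-type cells. The call of *ATG27* was lost without array 1 (-0.94) or array 2 (-0.93) of wild-type control cells and without array 3 of wild-type cells with SO2 (-0.97). In *com2*Δ cells the fold changes were -0.44 ± 0.11 and -0.31 ± 0.12, and the differences of responses, 0.68 ± 0.16 and 0.69 ± 0.17 (adjusted p = 0.0053 and 0.0070), stayed under 2-fold.

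The genes of the next steps were called in no comparison. Of all features, 5.88% were called for SO2 in *com2*Δ cells and 18.8% in wild-type cells. Between the strains, 17.7% were called with SO2 and 0.706% without, and 17.5% for the difference of responses. *ATG14*, which directs the PI3-kinase complex to the assembly site, had log2 fold changes with SO2 of 0.62 ± 0.26 in *com2*Δ cells and 0.38 ± 0.26 in wild-type cells. With the farthest array of each group left out, its value in *com2*Δ cells was 1.01 and passed the call. *ATG38*, which encodes a further subunit of that complex, measured 0.07 ± 0.16 in *com2*Δ cells and 0.82 ± 0.16 in wild-type cells (adjusted p = 0.0011), with a difference of responses of -0.76 ± 0.23 (adjusted p = 0.020). *ATG2*, whose product moves lipids into the growing membrane, measured -0.50 ± 0.13 in *com2*Δ cells (adjusted p = 0.015) and 0.01 ± 0.13 in wild-type cells. *ATG18*, whose product binds PI3P together with Atg2, measured 0.52 ± 0.18 in *com2*Δ cells and 0.75 ± 0.18 in wild-type cells; without array 3 of wild-type control cells the wild-type value was 1.005 and passed the call. The PI3P-binding proteins of *ATG20* and *ATG21* had values between -0.11 and 0.16 in both strains.

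Among the 8 genes of the conjugation systems, *ATG10* was called for SO2 in wild-type cells, between the strains with SO2 and for the difference of responses. Each time this is 12.5% of the group, beside 18.8%, 17.7% and 17.5% of all features in the same order. *ATG10* encodes the enzyme that joins Atg12 to Atg5, and the other genes of the group were not called. *ATG10* intensities were 312, 231 and 266 on the *com2*Δ arrays with SO2, 245, 256 and 307 on the *com2*Δ control arrays, 94.5, 137 and 109 on the wild-type arrays with SO2 and 355, 319 and 244 on the wild-type control arrays. The wild-type arrays with SO2 stood alone at the bottom, and the other 3 groups overlapped. *ATG10* fell 2.69-fold in wild-type cells (-1.43 ± 0.18; adjusted p = 4.4e-05, limma) and measured -0.00 ± 0.18 in *com2*Δ cells, and the difference of responses was 1.42 ± 0.25 (adjusted p = 0.0012). With SO2 it was 2.38-fold higher in the mutant than in the wild type (1.25 ± 0.18; adjusted p = 0.00012). All 3 low values lie under 152.5, the rough floor set by *LEU2* on 1 array. With every intensity raised to that floor, the fold change in wild-type cells was -0.99, the strain difference with SO2 0.81 and the difference of responses 0.98, and none passed.

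*ATG8* encodes the protein that is attached to the membrane and is the usual marker of autophagy. *ATG8* intensities were 4174, 1763 and 3846 on the *com2*Δ arrays with SO2, 1739, 1878 and 2911 on the *com2*Δ control arrays, 2263, 2340.3 and 2486 on the wild-type arrays with SO2 and 3166, 3126 and 2749 on the wild-type control arrays. In the wild type the arrays with SO2 were below the controls, and in the mutant array 2 with SO2 lay far below its replicates, inside the range of the controls. The log2 fold change was 0.52 ± 0.29 in *com2*Δ cells and -0.35 ± 0.29 in wild-type cells, and the difference of responses was 0.87 ± 0.40 (adjusted p = 0.099, limma). That difference passed the call without array 2 of *com2*Δ cells with SO2 (1.27) and without array 3 of *com2*Δ control cells (1.10). With array weights it was 1.44 and with the farthest array of each group left out 1.56. The fold change in *com2*Δ cells was then 1.01 and 1.15, and all 4 passed. Under array weights, 22.6% of all features passed for the difference of responses and 6.39% in *com2*Δ cells. With the farthest arrays left out, 24.9% and 8.36% did. The remaining conjugation genes, *ATG3*, *ATG4*, *ATG5*, *ATG7*, *ATG12* and *ATG16*, had log2 fold changes with SO2 between -0.36 and 0.35 in *com2*Δ cells and between -0.32 and 0.63 in wild-type cells. *ATG7*, which encodes the activating enzyme shared by both systems, gave the highest of these wild-type values (adjusted p = 0.024).

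The 8 genes of cargo receptors and selective autophagy held 5 of the 10 calls in wild-type cells, where 18.8% of all features were called, and none of them was called in *com2*Δ cells, where 5.88% of all features were. At an unadjusted p under 0.05, *ATG32*, *ATG33*, *ATG36* and *ATG40* differed with SO2 in *com2*Δ cells (limma), 4 of 8 beside 41.9% of all features. *ATG32* encodes the receptor on mitochondria. *ATG32* intensities were 912, 847 and 865 on the *com2*Δ arrays with SO2, 796, 720.3 and 646 on the *com2*Δ control arrays, 2053, 2094 and 2325 on the wild-type arrays with SO2 and 957, 970.1 and 1079 on the wild-type control arrays. The 4 groups did not overlap. *ATG32* rose 2.15-fold in wild-type cells (1.11 ± 0.10; adjusted p = 4.3e-06, limma), measured 0.28 ± 0.10 in *com2*Δ cells, and with SO2 was 2.46-fold lower in the mutant than in the wild type (-1.30 ± 0.10; adjusted p = 2.0e-06).

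*ATG33* encodes a mitochondrial outer membrane protein that takes part in mitophagy. *ATG33* intensities were 1525, 1355 and 1369.6 on the *com2*Δ arrays with SO2, 874, 988 and 1204 on the *com2*Δ control arrays, 2703, 4170.3 and 3108 on the wild-type arrays with SO2 and 1080.4, 1225 and 1710.2 on the wild-type control arrays. In both strains the arrays with SO2 were above the controls, by more in the wild type. *ATG33* rose 2.49-fold in wild-type cells (1.32 ± 0.20; adjusted p = 0.00015, limma), measured 0.48 ± 0.20 in *com2*Δ cells, and with SO2 was 2.31-fold lower in the mutant than in the wild type (-1.21 ± 0.20; adjusted p = 0.00028). Its difference of responses of -0.84 became -1.03 and passed the call without array 3 of wild-type control cells.

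*ATG26* encodes a sterol glucosyltransferase, an enzyme that peroxisome autophagy needs in the yeast *Komagataella phaffii*, and *ATG36* encodes the peroxisome receptor of *S. cerevisiae*. *ATG26* intensities were 1378, 1250.2 and 1506 on the *com2*Δ arrays with SO2, 1480.1, 1675 and 1503 on the *com2*Δ control arrays, 3773, 3354 and 4576 on the wild-type arrays with SO2 and 1906, 2069 and 1736 on the wild-type control arrays. For *ATG36* the intensities were 481, 363 and 374 on the *com2*Δ arrays with SO2, 492, 518 and 532 on the *com2*Δ control arrays, 938, 1099 and 954 on the wild-type arrays with SO2 and 536, 496 and 481 on the wild-type control arrays. Both genes were highest in wild-type cells with SO2, whose arrays overlapped with no other group. *ATG26* rose 2.04-fold in wild-type cells (1.03 ± 0.13; adjusted p = 3.9e-05, limma) and measured -0.17 ± 0.13 in *com2*Δ cells, with a difference of responses of -1.20 ± 0.18 (adjusted p = 0.00043). Its wild-type call was lost without array 3 of wild-type cells with SO2 (0.91) and without array 3 of wild-type control cells (0.96). *ATG36* measured -0.35 ± 0.12 in *com2*Δ cells and 0.98 ± 0.12 in wild-type cells, just under 2-fold, and the difference of -1.33 ± 0.17 was called (adjusted p = 0.00015). It passed in wild-type cells without array 1 (1.02) or array 3 (1.01) with SO2 or without control array 1 (1.03). With SO2, *ATG26* was 2.82-fold and *ATG36* 2.47-fold lower in the mutant than in the wild type (adjusted p = 3.6e-06 and 4.9e-06).

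*ATG34* and *ATG39* fell in wild-type cells. *ATG34* encodes a receptor for α-mannosidase that works in starved cells, and *ATG39* the receptor on the nuclear envelope. *ATG34* intensities were 767, 487 and 712 on the *com2*Δ arrays with SO2, 652, 623 and 676 on the *com2*Δ control arrays, 327, 435 and 391 on the wild-type arrays with SO2 and 1152, 1107 and 797 on the wild-type control arrays. For *ATG39* the intensities were 372, 339 and 336 on the *com2*Δ arrays with SO2, 298, 480.3 and 458 on the *com2*Δ control arrays, 216, 289.6 and 257 on the wild-type arrays with SO2 and 538, 612 and 506 on the wild-type control arrays. Wild-type arrays with SO2 were the lowest and wild-type control arrays the highest for both genes, with the *com2*Δ arrays between them. *ATG34* fell 2.63-fold in wild-type cells (-1.40 ± 0.19; adjusted p = 7.1e-05, limma) and measured -0.02 ± 0.19 in *com2*Δ cells, and the difference of responses was 1.38 ± 0.26 (adjusted p = 0.0018). *ATG39* fell 2.18-fold in wild-type cells (-1.12 ± 0.17; adjusted p = 0.00020) and measured -0.21 ± 0.17 in *com2*Δ cells. Its difference of responses, 0.91 ± 0.25 (adjusted p = 0.011), passed 2-fold without array 2 of wild-type cells with SO2 (1.01) and without array 2 (1.04) or array 3 (1.01) of *com2*Δ control cells.

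*ATG19* encodes the receptor of the cytoplasm-to-vacuole pathway and is related to *ATG34*. It was called in no comparison, and its log2 fold change was -0.28 ± 0.20 in *com2*Δ cells and 0.24 ± 0.20 in wild-type cells. *ATG40*, which encodes a receptor on the endoplasmic reticulum, had 623, 564 and 612 on the *com2*Δ arrays with SO2, 1208, 1048 and 1109 on the *com2*Δ control arrays, 873, 1210.4 and 898 on the wild-type arrays with SO2 and 1442, 1382 and 1135 on the wild-type control arrays. All arrays with SO2 were lower than the controls in the mutant, and the wild-type groups overlapped. The fold change of -0.90 ± 0.14 in *com2*Δ cells (adjusted p = 0.00083, limma) stayed under 2-fold, and it was -0.42 ± 0.14 in wild-type cells. Of the vacuolar genes, *ATG15* (a lipase) measured -0.24 in *com2*Δ cells and -0.37 in wild-type cells with SO2, and *ATG22* (an amino acid exporter) measured -0.48 in *com2*Δ cells and 0.29 in wild-type cells. *ATG22* was lower in the mutant than in the wild type with SO2 by -0.92 ± 0.23, which passed 2-fold without array 1 (-1.10) or array 3 (-1.03) of wild-type cells with SO2.

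**Figure D4:**
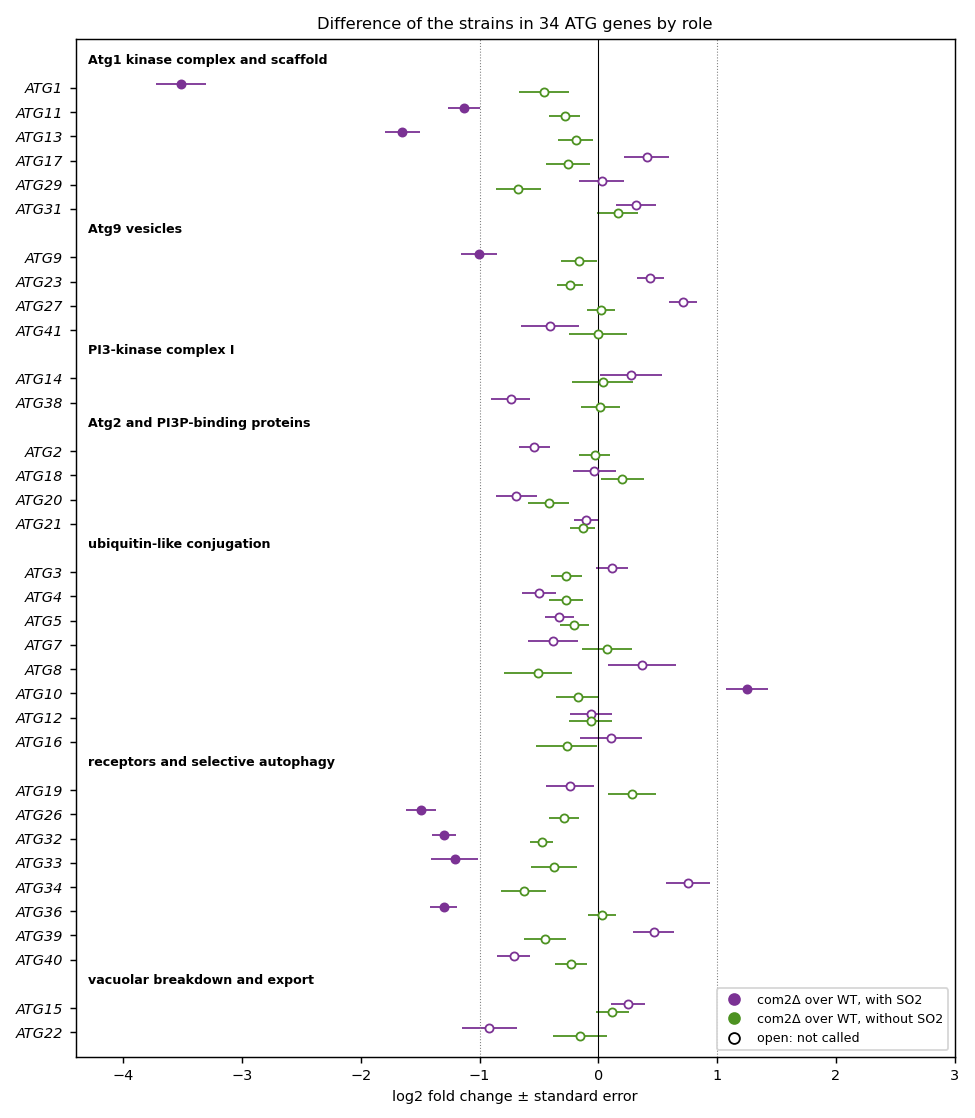
Log2 difference of *com2*Δ minus wild-type cells (x axis) for the 34 *ATG* genes by role, with SO2 (purple) and without SO2 (green); points are estimates from limma, bars 1 standard error, filled points passed the call, and dotted lines mark 2-fold. *ATG1* lies far to the left with SO2, at -3.51, and no green point is filled.

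Outside the *ATG* symbols, other autophagy genes were read from lists. Of 13 genes for further core and fusion proteins, *VPS34* and *TRS85* (a subunit of the TRAPP complex that autophagy uses) rose in wild-type cells, 15.4% of the list beside 18.8% of all features. None was called in *com2*Δ cells by limma, beside 5.88% of all features, and 5 differed at an unadjusted p under 0.05, beside 41.9%. *VPS34* encodes the PI3-kinase of the complex that *ATG14* directs. *VPS34* intensities were 2108, 1747 and 1983 on the *com2*Δ arrays with SO2, 1918, 2160.3 and 1852 on the *com2*Δ control arrays, 4436, 4323 and 4632 on the wild-type arrays with SO2 and 1966, 2295 and 2194 on the wild-type control arrays. Wild-type arrays with SO2 were clearly above the other 3 groups, which overlapped. With SO2, *VPS34* was called lower in the mutant than in the wild type (log2 difference, -1.20). Its log2 fold change was -0.02 ± 0.10 in *com2*Δ cells and 1.06 ± 0.10 in wild-type cells (not called at 0.99 without array 1 of wild-type control cells and at 0.96 after median centring), and the difference of responses was -1.08 ± 0.15 (adjusted p = 0.00023, limma). *SNX4*, which encodes a partner of Atg20, had a difference of responses of 1.24 ± 0.21 (adjusted p = 0.00095, limma). *VAM3*, a vacuolar fusion protein, was higher in the mutant than in the wild type with SO2 (1.08 ± 0.12, or 0.97 without array 1 of *com2*Δ cells with SO2). Without SO2, *VAM3* was also higher on all mutant arrays, at 879 to 1145 against 742 to 754, and its difference of responses was not called. *VPS34* and *VAM3*, the genes called between the strains with SO2, are 15.4% of the list beside 17.7% of all features. Of 8 vacuolar cargo proteins and proteases, 1 was called in *com2*Δ cells (5.88% of all features) and 2 in wild-type cells (18.8% of all features). *LAP3* rose in wild-type cells (1.24 ± 0.17), and *AMS1* (α-mannosidase) measured -1.05 ± 0.16 in *com2*Δ cells and -1.03 ± 0.16 in wild-type cells. *PRB1* (vacuolar protease B) was lower in the mutant than in the wild type with SO2 (-1.09 ± 0.11), 12.5% of the list beside 17.7% of all features. Without SO2, *PRB1* was also lower on all mutant arrays, at 3668 to 4012 against 4821 to 6448, and its difference of responses was not called. The *AMS1* calls were lost without array 2 with SO2 (-0.94) or control array 1 (-0.89) in *com2*Δ cells, and without array 2 with SO2 (-0.94) or control array 1 (-0.996) in wild-type cells. *APE1*, the main cargo of the cytoplasm-to-vacuole pathway, was called in no comparison.

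Of 17 measured genes of signalling to autophagy, *SCH9*, *NPR3* and *IML1* rose and *BCY1* fell in wild-type cells with SO2, 23.5% of the list beside 18.8% of all features. None was called in *com2*Δ cells by limma, beside 5.88% of all features, and 11 differed at an unadjusted p under 0.05, beside 41.9%. *IML1* and *NPR3* encode subunits of the SEACIT complex, which restrains TORC1, and *TOR1*, *TOR2* and *KOG1* encode subunits of the TOR complexes. *SCH9* encodes a kinase downstream of TORC1, *BCY1* the regulatory subunit of protein kinase A, *RAS2* a GTPase that acts on that kinase, and *GCN2* a kinase that senses a lack of amino acids. *IML1* intensities were 1111, 1228 and 1282 on the *com2*Δ arrays with SO2, 1263, 1380.3 and 1099 on the *com2*Δ control arrays, 3817, 4089.7 and 4286 on the wild-type arrays with SO2 and 1227, 1300.2 and 1361 on the wild-type control arrays. Wild-type arrays with SO2 stood far above the rest. With SO2, *IML1* (-1.75), *TOR1* (-1.68), *TOR2* (-1.22), *GCN2* (-1.21) and *KOG1* (-1.18) were lower and *RAS2* (1.18) was higher in the mutant than in the wild type, 35.3% of the list beside 17.7% of all features. The differences of responses of *IML1* (-1.69 ± 0.15), *TOR1* (-1.61 ± 0.21) and *KOG1* (-1.22 ± 0.19) were called. Those of *TOR2* (-0.996) and *GCN2* (-0.98) were just under 2-fold and passed when any 1 of 6 arrays was left out, down to -1.15 and -1.06. The wild-type fold change of *SCH9*, 1.04 ± 0.32, was 0.95 without array 1 with SO2, 0.77 without control array 1 and 0.87 without control array 2, and that of *BCY1*, -1.14 ± 0.20, was -0.88 without control array 3; none of these passed. After median centring and quantile normalization *SCH9* was at 0.94 under both, and *NPR3*, at 1.04 ± 0.09, was at 0.95 and 0.97, and these calls were lost too.

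Of 8 transcriptional regulators of *ATG* genes, *GLN3* and *GAT1*, which encode activators of nitrogen-regulated genes, rose in wild-type cells with SO2, and *UME6*, which encodes a repressor of *ATG8*, fell, 37.5% of the list beside 18.8% of all features. *GAT1* intensities were 2169.7, 2206 and 2084 on the *com2*Δ arrays with SO2, 849, 853 and 755 on the *com2*Δ control arrays, 9512, 6361 and 10157 on the wild-type arrays with SO2 and 459, 539 and 1399.9 on the wild-type control arrays. *GAT1* was higher with SO2 on all arrays of both strains, and control array 3 of the wild type was well above its replicates. Its log2 fold change was 1.40 ± 0.33 in *com2*Δ cells and 3.60 ± 0.33 in wild-type cells, with a difference of responses of -2.20 ± 0.47 (adjusted p = 0.0035, limma). *GLN3* measured -0.10 ± 0.13 in *com2*Δ cells and 1.49 ± 0.13 in wild-type cells (difference of responses, -1.59 ± 0.19, adjusted p = 0.00010). *UME6* measured 0.00 ± 0.10 in *com2*Δ cells and -1.12 ± 0.10 in wild-type cells (difference of responses, 1.12 ± 0.15, adjusted p = 0.00020, not called at 0.98 with array weights or with the farthest arrays left out). *ATG8*, the best known target of Ume6, measured 0.52 ± 0.29 in *com2*Δ cells and -0.35 ± 0.29 in wild-type cells. *GCN4*, which encodes the activator of amino acid synthesis genes, was called in no comparison.

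**Figure D5:**
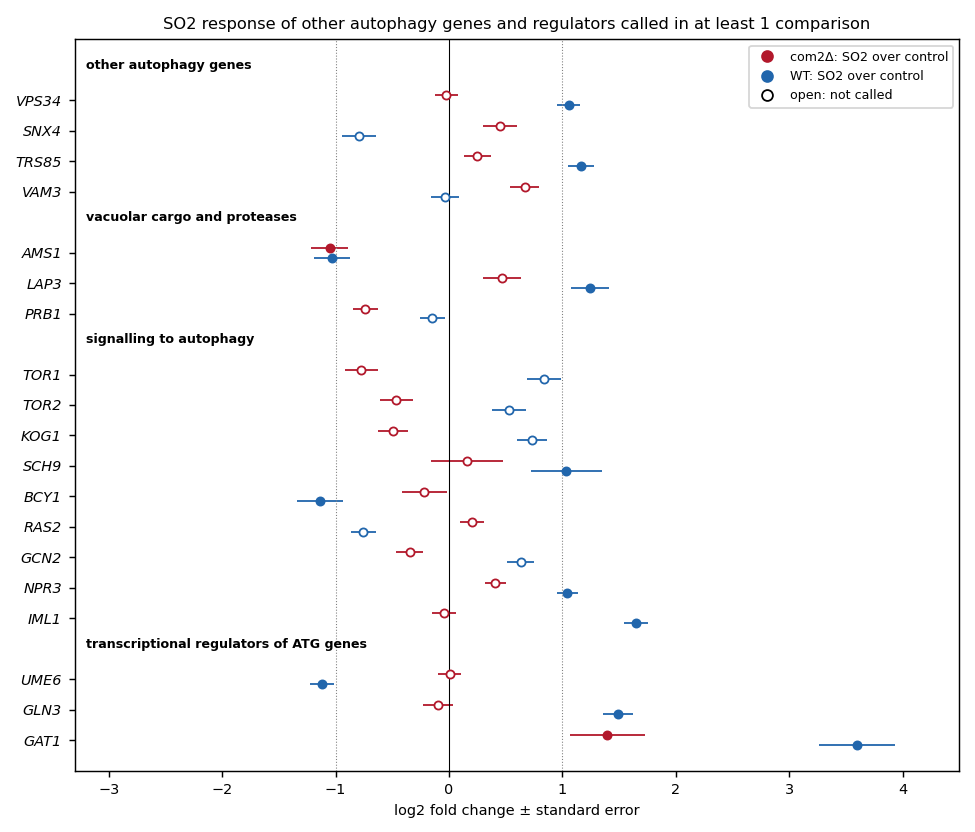
Log2 fold change with SO2 (x axis, SO2 over control) in *com2*Δ cells (red) and wild-type cells (blue) of the listed autophagy genes and regulators without an *ATG* symbol that were called in at least 1 of the 5 comparisons; points are estimates from limma, bars 1 standard error, filled points passed the call, and dotted lines mark 2-fold. *GAT1* lies at 1.40 in *com2*Δ cells and at 3.60 in wild-type cells, and *AMS1* has nearly the same value in both.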

How the data were processed

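RNA of 12 yeast cultures was hybridized to Affymetrix Yeast Genome 2.0 arrays. The authors deposited a table of linear intensities, 1 for each probe set on each array, none under 1. The methods describe detection calls with MAS 5.0, normalization to an invariant set in dChip and an expression index modelled on perfect match probes alone, and the submitters' processing notes name MAS5. Labels and methods differ in the number of arrays and the labelling kit. The mutant comes from the Euroscarf deletion collection. Of 5716 probe sets, 5498 name 1 gene, and the probe set brightest on average stood for each of 47 genes with several, giving 5667 features. Every *ATG* gene had 1 probe set. *ATG42*, *ATG44* and *ATG45* were not analysed here.

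Log2 intensities, with no further scaling (array medians 1673 to 1868), were fitted with limma 3.58.1 in R 4.3.3, with 1 mean per group (8 residual and 3.24 prior degrees of freedom), and p-values were adjusted over all features by Benjamini-Hochberg. Calls needed 2-fold, p under 0.05 and a false discovery rate under 10%. The comparisons between the strains and the difference of responses use the same arrays as the SO2 comparisons within each strain. P-values set a difference against the spread between cultures, estimated for each feature over all 4 groups together and moderated across features. The spread of a single group can differ from it, and the number of arrays limits the precision. Tables came from Python 3.11.15 with pandas 2.3.3, numpy 2.4.6 and scipy 1.17.1. Values on every array are given for members called in at least 1 comparison; *ATG8*, *ATG40*, *VPS34*, *IML1* and *GAT1* were added after their values were seen. The members and lists were chosen with earlier results of these data known. The alternatives tried were leaving out each array, a replicate block, median centring, quantile normalization, a floor at the highest intensity of a deleted gene (*LEU2* on 1 array), adding 16 to the intensities, leaving out the 25% dimmest features, array weights, a fit of only the 6 arrays compared, robust variances with a trend, a fit of all probe sets, and 2 other call rules. Leaving out the farthest array of each group was chosen after seeing the data. The array weights reached their iteration limit before converging, and that fit is given as computed. No sequences or promoter motifs were used here.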

Additional observations from a re-analysis of the deposited data

Results flagged for a closer look

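In 6 *ATG* genes the SO2 responses of the strains differed by the test of the difference itself (*com2*Δ minus wild type, log2, limma). The difference was negative for *ATG1* (-3.06), *ATG13* (-1.46), *ATG36* (-1.33) and *ATG26* (-1.20), and positive for *ATG10* (1.42) and *ATG34* (1.38). Each of these kept at least 2-fold when any single array was left out, and *ATG10* did not when intensities were raised to the highest intensity of a deleted gene (0.98).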

How the results depend on the processing

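With the replicate number as a block, the calls stayed at 2 *ATG* genes for SO2 in *com2*Δ cells, 10 for SO2 in wild-type cells, 9 between the strains with SO2, 0 without SO2 and 6 for the difference of responses. Of all features, 5.89%, 18.8%, 17.7%, 0.688% and 17.4% were called there, in the same order. Correlations of the deviations from group means in the 18 same-numbered pairs of arrays ranged from -0.31 to 0.47, with 7 over 0.1. With so few arrays these values cannot decide whether same-numbered cultures were paired. Leaving out 1 array at a time gave 1 to 2, 9 to 11, 8 to 10, 0 to 0 and 6 to 8 calls in the same order. The share of all features called was then 5.21% to 7.04%, 18.1% to 20.8%, 17.0% to 19.4%, 0.476% to 1.31% and 16.0% to 19.3%. The lowest count in *com2*Δ cells, 1, came without array 2 with SO2, where *ATG1* was no longer called. At an adjusted p under 0.05 with no limit on the fold, the counts were 9, 19, 20, 1 and 15. Without the 25% dimmest features, which left 18 *ATG* genes, 6 were called in wild-type cells and 3 for the difference of responses, where 17.0% and 15.3% of the remaining features were. With the farthest array of each group left out, chosen after seeing the data, 4 were called in *com2*Δ cells and 10 for the difference of responses, where 8.36% and 24.9% of all features were. No fold change of an *ATG* gene that was called reversed its sign in any alternative. The fit on the 6 arrays compared does not apply to the difference of responses. *ATG9*, *ATG26* and *ATG39* lie near 2-fold, and further alternatives ended their calls: *ATG26* was at 0.97 after quantile normalization, 0.93 after median centring and 0.95 with array weights in wild-type cells, *ATG39* at -0.98 after quantile normalization, and *ATG9* at -0.86 to -0.97 under 5 settings between the strains with SO2. Among the other listed genes, leaving out 1 array also brought *BCY1*, *RAS2*, *SCH9* and *TAP42* past 2-fold for the difference of responses, and *BCY1*, *CPS1*, *LST8*, *SCH9*, *SNX4*, *TCO89* and *VPS15* between the strains with SO2, the largest being *SCH9* at -1.31.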
